A study of Mus musculus with 2 samples.

Results

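The genes described here are the long intergenic non-coding RNA (lincRNA) genes that were expressed in the gastrocnemius, the large muscle of the mouse calf. They were selected on their level: a gene had to carry the lincRNA type in GENCODE release M21 and to reach at least 1 TPM (a level corrected for transcript length that sums to a fixed total in each library) in both libraries. The imprinted genes H19, Meg3, Rian, Mirg, Airn and Kcnq1ot1 were left out by name, and 2 of these, H19 and Meg3, would have passed. This left 115 genes of the 5854 lincRNA genes and of 55536 annotated genes in all. Total RNA was sequenced from muscle tissue of male mice of the hybrid strain B6CASTF1/J, and the free-text labels give an age of 18 to 20 months while the age field reads unknown. Both libraries, called biological replicates 1 and 2, belong to 1 untreated group, were each started from 300 ng of RNA and carry synthetic ERCC spike-in RNAs. No condition can therefore be compared, and every mean ± SD is over n = 2 libraries. The labels number the males differently but point to 1 donor record, so whether the spread between the libraries is a spread between animals cannot be told apart from a technical one.

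Most lincRNAs are transcribed by RNA polymerase II like messenger RNAs and are usually spliced and polyadenylated, but are not annotated as coding for protein. The lincRNA type also takes in entries to which this need not apply. Among them are Rmrp, in RefSeq an RNase MRP RNA, and Gm42418, in RefSeq a pseudogene. Some lincRNAs stay in the nucleus and build structures there, as Malat1 in nuclear speckles and Neat1 in paraspeckles. Others act in the cytoplasm by binding proteins or microRNAs, and many are host transcripts for small RNAs or are transcribed beside a protein-coding gene without a known role of their own.

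The sequences of 4 members, read from the GENCODE M21 transcripts and printed 5′ to 3′, show features that the values below turn on. Neat1 makes a short and a long transcript from the same end of the gene, and their 3′ ends differ. The short one carries the polyadenylation signal AATAAA, given in capitals, in its last 60 bases (mm10 chromosome 19, 5842307 to 5842366, minus strand).
Neat1 short transcript end: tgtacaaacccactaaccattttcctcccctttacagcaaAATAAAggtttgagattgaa
The last 100 bases of the long one (5824708 to 5824807), held 0 copies of AATAAA, and the U-rich runs and A-rich end in capitals are the elements known to fold into a protective triple helix.
Neat1 long transcript end: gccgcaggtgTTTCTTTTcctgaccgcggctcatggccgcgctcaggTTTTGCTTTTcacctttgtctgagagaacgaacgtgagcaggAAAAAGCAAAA
1700020I14Rik, also called Cyrano or Oip5os1, is known for a site that pairs with the microRNA miR-7 almost along its whole length and directs its destruction. The mature miR-7a-5p from RefSeq (GRCm38.p6) is printed with its seed, bases 2 to 8, in capitals, above the site on chromosome 2 (119602137 to 119602161, plus strand), in which capitals mark bases that pair with it.
mmu-miR-7a-5p: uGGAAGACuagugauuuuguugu
1700020I14Rik miR-7 site: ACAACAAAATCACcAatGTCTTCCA
Of the 23 bases of the microRNA, 22 paired when 2 extra bases were allowed in the site, and the plain seed match also stood in the longest transcript of 669 lincRNA genes (11.4%).
2900097C17Rik, known as Norad, binds Pumilio proteins through copies of TGTANATA (N is any base, searched on the transcript strand), and Gm7292 is a near copy of it on another chromosome. A window of 120 bases with 2 copies in capitals was identical base for base in both, at chromosome 2, 156391348 to 156391467 (minus strand), and chromosome 6, 117717827 to 117717946 (plus strand).
2900097C17Rik: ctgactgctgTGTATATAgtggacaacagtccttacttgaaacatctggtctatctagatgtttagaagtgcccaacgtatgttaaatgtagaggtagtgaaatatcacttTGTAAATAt
Gm7292: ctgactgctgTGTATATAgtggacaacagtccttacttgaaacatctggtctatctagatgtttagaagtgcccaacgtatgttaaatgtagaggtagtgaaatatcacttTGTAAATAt
Norad held 11 copies of the motif in 4915 bases (2.24 per kb) and Gm7292 held 9 in 2527 bases (3.56 per kb), against 0.123 per kb over the longest transcripts of all lincRNA genes. At least 1 copy stood in 813 of the 5854 lincRNA genes (13.9%) and in 28 members, whereas 9 or more stood in these 2 genes alone.

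Few lincRNA genes were expressed in this muscle, and a handful of them held nearly all of the RNA. With the imprinted genes counted in, 117 of the 5854 lincRNA genes (2.00%) reached 1 TPM in both libraries, against 10076 of 22028 protein-coding genes (45.7%), 89 of 2959 antisense genes (3.01%) and 64 of 790 genes of the processed transcript type (8.10%). In both libraries 4601 lincRNA genes were listed at 0. The 115 members summed to 8454 TPM in replicate 1 and 8847 TPM in replicate 2, which was 0.845% and 0.885% of all TPM (0.865 ± 0.0278%, SD, n = 2). Of that sum, the 10 most abundant members held 94.0% in each library. The median member had 2.93 TPM in replicate 1 and 3.00 TPM in replicate 2. Mean TPM was under 5 in 78 members and under 2 in 42, while 20 members had at least 10 TPM, 7 at least 100 TPM and 3 at least 1000 TPM in mean TPM. Their expected counts (reads per gene, with ambiguous reads shared out) ran from 10 to 450978 per library, with medians of 105 and 102. Among the 15 members of highest mean TPM, 10 had an SD under 10% of the mean, as had 60 of all 115.

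**Figure D1:**
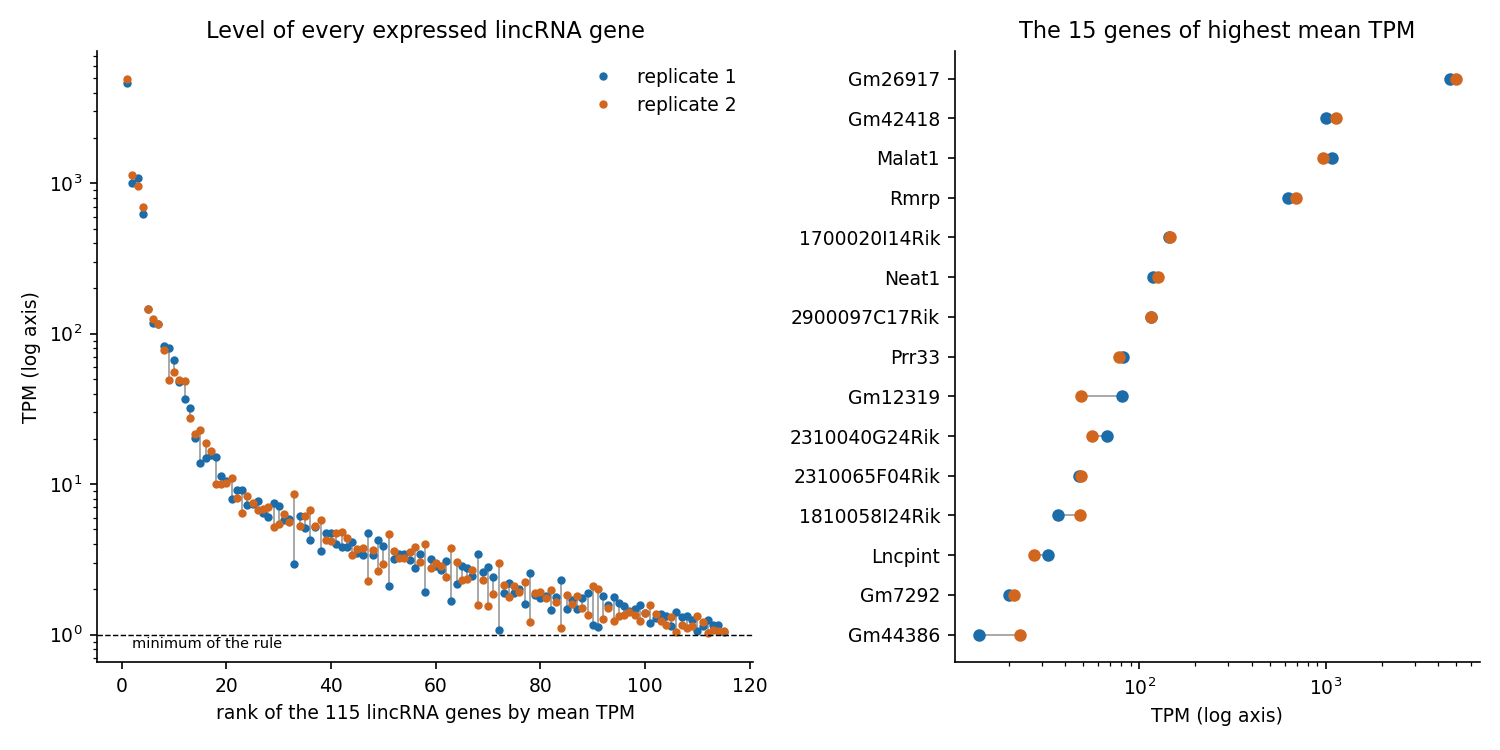
TPM (log axis) of the 115 expressed lincRNA genes by rank of mean TPM (left) and of the 15 genes of highest mean TPM by name (right); points are replicate 1 (blue) and replicate 2 (orange), the grey line joins them and the dashed line is the minimum of 1 TPM. The level drops steeply over the first 20 genes, after which most lie under 10 TPM, and the libraries stand close together for most of the 15.

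Members had shorter and fewer transcripts than the expressed protein-coding genes. The longest transcript of a member had a median of 1454 nt, against 975 nt in the 5739 other lincRNA genes and 3436 nt in the protein-coding genes that reached the same TPM. A single transcript was annotated for 54 members (47.0%), 4302 of the other lincRNA genes and 7.82% of those protein-coding genes. The median number of exons was 2 in members, 3 in the other lincRNA genes and 9 in the protein-coding genes, and 17 members (14.8%) had 1 exon. Members lay on all autosomes and the X chromosome, with 13 on chromosome 7, 11 on chromosome 5 and 1 on the X chromosome.

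The most abundant members came from 1 locus on chromosome 17 that resembles ribosomal DNA. Gm26917 (ENSMUSG00000097971.3, mm10 chromosome 17, 39843013 to 39846341, plus strand) had 4626 TPM in replicate 1 and 4963 TPM in replicate 2. Gm42418 (ENSMUSG00000098178.1, 39846958 to 39848788, plus strand) had 1005 and 1131 TPM. Both were close between the libraries, and together they made up 66.6% and 68.9% of all member TPM. RefSeq places the pseudogene Rn18s-rs5, a copy related to the 18S ribosomal RNA, at 39846354 to 39848202, which overlaps Gm42418 and starts just after the end of Gm26917. On the opposite strand of the same stretch, the ribosomal RNA entry CT010467.1 had 2.04 and 2.70 TPM and the lincRNA entry AY036118 was listed at 0 in both libraries. Whether the reads of Gm26917 and Gm42418 came from this locus or from ribosomal RNA genes elsewhere was not tested. Without both genes the members held 0.279 ± 0.00489% of TPM (SD, n = 2), with 0.282% in replicate 1 and 0.275% in replicate 2.

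Malat1, an RNA of nuclear speckles, was the third most abundant member by mean TPM. Malat1 (ENSMUSG00000092341.3, chromosome 19, 5795690 to 5802672, minus strand) had 1080.4 TPM in replicate 1 and 960.1 TPM in replicate 2 from 111013 and 111274 expected counts. Scaled to library size, its counts were 1.13-fold higher in replicate 1 (95% exact counting interval 1.12 to 1.14), under the 2-fold limit used for calls. The authors' first quantification divided the gene among its 6983-nt transcript, at 468 and 431 TPM, and 3 short transcripts of 485 to 656 nt, which held 56.6% and 55.1% of its TPM. In the second quantification of the same reads the long transcript held 99.9% and 100% and the gene had 674 and 581 TPM.

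Neat1, the neighbouring RNA that scaffolds paraspeckles, had a like summed TPM in both libraries while the share of its long transcript was lower in replicate 2. Neat1 (ENSMUSG00000092274.3, chromosome 19, 5824708 to 5845478, minus strand) had 118 TPM in replicate 1 and 126 TPM in replicate 2. Its long transcript of 20771 nt is the one that paraspeckles need, and it had 37.3 TPM in replicate 1 and 19.7 TPM in replicate 2. The short one of 3004 nt had 79.6 and 105 TPM. The long form thus made up 31.6% of Neat1 TPM in replicate 1 and 15.6% in replicate 2. By the second quantification the long form had 50.8 and 25.3 TPM, and the short form had 84.5 and 115 TPM, so the order of the libraries was the same for each form. The libraries differed in the opposite order by gene count: 31686 expected counts in replicate 1 and 24635 in replicate 2, or 1.46-fold more in replicate 1 after scaling (95% exact counting interval 1.44 to 1.49). TPM divides by length, so the long form carries more reads per unit of TPM than the short one. Counts of the long form alone were 1.97-fold higher in replicate 1 in the first quantification and 1.94-fold in the second, with 24351 and 14044 expected counts in the first. Those of the short form were 1.27-fold and 1.40-fold higher in replicate 2. With 1 library on each side these ratios have no replicate check, and reads from the shared first part of the gene can only be divided between the forms by estimate.

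**Figure D2:**
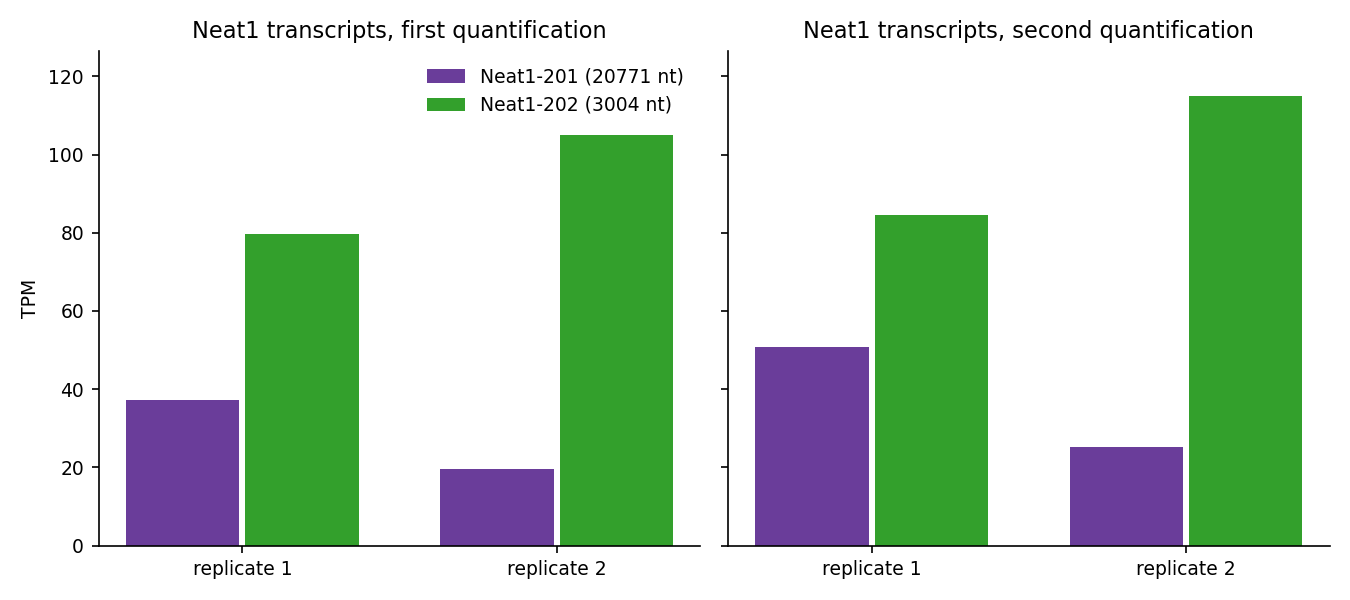
TPM of the long (purple, 20771 nt) and the short (green, 3004 nt) Neat1 transcript in replicates 1 and 2, each bar being 1 library, by the first (left) and second (right) quantification. In both panels the long form is lower in replicate 2 (37.3 against 19.7 TPM, and 50.8 against 25.3 TPM) and the short form is higher.

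Among the 20 members with several transcripts, a mean TPM of at least 5 and a mean count of at least 100, few others showed such a shift, and the 3 named here were chosen after their values were seen. In 5031425E22Rik the share of the 1983-nt transcript was 38.4% in replicate 1 and 56.3% in replicate 2, and the second quantification gave 41.8% and 61.5%. For 2310015D24Rik the share of the 576-nt transcript was 30.7% and 48.7%, and 21.6% and 38% in the second quantification. The 2 quantifications did not give the same main form for AW112010: the 625-nt transcript held 60.5% and 82.5% in the first and 6.25% and 12.4% in the second. Over the 60 members with several transcripts and a value in both quantifications, the main transcript was the same in both libraries in 53 (88.3%), against 89.3% of 9285 protein-coding genes. It was the same in both quantifications in 39 (65.0%), against 75.7% of those protein-coding genes.

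The cytoplasmic lincRNAs whose sequences are printed above had steady levels. 1700020I14Rik (Cyrano, chromosome 2, 119594297 to 119607502) had 145 TPM in replicate 1 and 147 TPM in replicate 2. Its 8300-nt transcript, which holds the miR-7 site, made up 73.2% and 74.5% of that, and 80.3% and 80.4% by the second quantification. 2900097C17Rik (Norad, chromosome 2, 156388065 to 156392979) had 116 TPM in each library. By scaled counts the libraries were 1.04-fold apart for Norad and 1.01-fold apart for Cyrano. Its copy Gm7292 (chromosome 6, 117716342 to 117718868) had 20.2 and 21.4 TPM, and 85.9% of its 31-base words also stand in Norad transcripts. Reads from these shared words cannot be assigned to either gene, so the level of Gm7292 is uncertain.

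Rmrp is the RNA of the enzyme RNase MRP, which processes the precursor of ribosomal RNA, and the annotation holds it as 2 overlapping entries. The lincRNA entry (ENSMUSG00000115420.1, chromosome 4, 43492783 to 43493063, minus strand) had 626 TPM in replicate 1 and 693 TPM in replicate 2. The ribozyme entry (ENSMUSG00000088088.1, 43492788 to 43493058) had 1166 and 1389 TPM. The 281-nt lincRNA transcript contains the whole 271-nt ribozyme transcript and is longer by 5 bases at each end, given in capitals in its first and last 25 bases.
Rmrp start: AGGCAgctcgctctgaaggcctgtt
Rmrp end: gggctcattctcagcgcggcTACAC
The split between the entries is therefore an estimate, and the posterior SD that the authors deposited for it was 231 counts in replicate 1 and 338 counts in replicate 2, the same for both entries. The second quantification listed both at 0 in both libraries.

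Lists of long non-coding RNAs with known roles held few members, because many of their genes carry other gene types or stayed under 1 TPM. Of 10 annotated genes on the list of nuclear body and architecture RNAs, 4 were members (Malat1, Neat1, Norad and Cyrano), and 0 of 9 tested were called different between the libraries. The snoRNA host list had 19 annotated genes, of which Snhg6, Snhg12, Snhg20 and Epb41l4aos were members and 0 of 15 tested were called. On the microRNA host list Carmn was a member of 18 annotated genes, and 9 were tested with 1 called in each direction. Of all genes tested, 4.46% were called higher in replicate 2 and 1.7% higher in replicate 1, and lists this short can hold few calls at those shares. The X inactivation list gave Jpx, an activator of Xist, at 2.86 and 2.31 TPM, while Xist itself had 0.03 TPM and 0 TPM. In the Hox and developmental list Bvht, known as Braveheart, was a member of 14 annotated genes, at 1.48 and 1.82 TPM. Carmn, a smooth muscle and heart RNA whose gene lies beside Bvht on chromosome 18, had 3.07 and 2.41 TPM. None of these members was called. The summed level of the smooth muscle and pericyte markers was 102 TPM in replicate 1 and 140 TPM in replicate 2, and which cells Carmn came from was not tested. In bulk tissue, fewer cells of a type and less RNA per cell cannot be told apart.

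2310065F04Rik (chromosome 11, 67112461 to 67120080, minus strand), known as linc-Myh of the fast myosin heavy chain locus, had 47.6 TPM in replicate 1 and 49.0 TPM in replicate 2. The flanking myosin genes differed more: Myh3, the embryonic chain, had 3.01 and 6.69 TPM, and Myh2, the fast IIa chain, had 279 and 1081 TPM, and both were called higher in replicate 2 (2.15-fold and 3.72-fold). By contrast the counts of 2310065F04Rik stood at 0.983 of replicate 1 in replicate 2 (95% exact counting interval 0.934 to 1.03). Prr33 (chromosome 7, 142491074 to 142506771, minus strand), which RefSeq also lists as a non-coding RNA, had 82.3 and 78.0 TPM and overlaps the fast troponin T gene Tnnt3 on the opposite strand, itself at 18401 and 15168 TPM. On that strand it also overlaps Lsp1, at 16.5 and 16.2 TPM. The labels' spike-in profile names stranded libraries, but whether the counting separated the strands is not given in the sources used here. At the chromosome 17 locus, Gm42418 had 54968 and 67725 counts. CT010467.1, which covers it on the opposite strand, had 41 and 58. Whether reads of Prr33, Tnnt3 and Lsp1 were mixed was not tested. Gm12319 (chromosome 11, 70654741 to 70656493, minus strand) starts 709 nt from the muscle enolase gene Eno3 in the opposite direction. It had 80.4 TPM in replicate 1 and 48.9 TPM in replicate 2, 1.71-fold by scaled counts (95% exact counting interval 1.51 to 1.93) and so under the limit for a call. Eno3 had 3154 TPM in replicate 1 and 2368 TPM in replicate 2. The nearest protein-coding gene of Gm12319 is Pfn1, an actin-binding protein gene 97 nt away on the same strand, which had 117 and 91.6 TPM and was not called. Among the other abundant members, 2310040G24Rik had 67.1 and 55.8 TPM, 1810058I24Rik 36.9 and 48.1 TPM, Lncpint, a p53-induced RNA, 32.3 and 27.5 TPM, and Gm44386 13.8 and 22.9 TPM. Of the muscle list's 14 annotated genes 2310065F04Rik and Lncpint were members, and 2 of 9 tested, neither of them a member, were called higher in replicate 2, against the 4.46% of all genes.

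Members also held small RNA genes within their bounds. The microRNA gene Mir30c-2 lies in the exon of Gm27028 (1.90 and 1.35 TPM), Mir101a in E130102H24Rik (1.48 and 1.80 TPM), Mir1839 in 2900076A07Rik (3.19 and 2.77 TPM) and Mir6516 in Snhg20 (1.67 and 3.78 TPM). Their mature forms from RefSeq (GRCm38.p6) are printed to show which microRNAs these transcripts could hold, with the seed in capitals, and no seed was shared among them.
mmu-miR-30c-5p: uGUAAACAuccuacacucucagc
mmu-miR-101a-3p: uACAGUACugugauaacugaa
mmu-miR-1839-5p: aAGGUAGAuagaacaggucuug
mmu-miR-6516-5p: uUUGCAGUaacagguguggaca
All 4 microRNA entries were listed at 0 in both libraries. Those of Mir30c-2, Mir101a and Mir1839 are shorter than the 99 nt that the first quantification takes off each length. The entry of Mir6516 is only a little longer. Their 0 therefore cannot show that these RNAs were absent. Snora44, a guide RNA for pseudouridylation held by Snhg12 (3.81 and 4.78 TPM), had 23.0 and 26.5 TPM. It lies in an exon of its host, so their reads can be shared. The first quantification divides by a length shortened by 99 nt, which leaves little of so short an entry. Its TPM therefore cannot be ranked against that of Snhg12. Snora61 in the same host had 3.27 and 13.0 TPM, and the small Cajal body RNA Gm26083 in Snhg20 had 26.5 and 18.3 TPM. Both also lie in exons of their hosts. The second quantification listed Gm26083 at 0 in both libraries, but its entry is shorter than the median of 344 and 349 nt taken off there. Snhg6 (9.20 and 8.04 TPM) holds Snord87 and Epb41l4aos (5.16 and 5.25 TPM) holds Gm23639 in introns, and 9430037G07Rik (2.02 and 1.91 TPM) holds Gm23017. Snord87 and Gm23017 were listed at 0, and Gm23639 at 0 and 0.88 TPM. Snord87 and Gm23017 are also shorter than 99 nt, so their 0 does not show absence either.

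RefSeq did not place every member among the non-coding genes. Of the 77 members matched to a RefSeq gene, 64 were long non-coding RNAs and 9 were protein-coding, and 38 members were not matched. The 9 were Tmem250-ps, D930016D06Rik (Thoc2l in RefSeq), 1810058I24Rik, Gm37494, Lsmem2, Gm39469, Gm46430, Gm5165 and Gm6712. The most abundant after 1810058I24Rik were Lsmem2, with 7.98 and 10.9 TPM, and Tmem250-ps, with 4.24 and 6.70 TPM. The other 6 lay between 1.02 and 4.39 TPM.

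Between the libraries, 4 members were called higher in replicate 2 and 2 higher in replicate 1. A call needed at least 2-fold and a Benjamini-Hochberg adjusted p below 0.05 in an exact binomial test of the rounded expected counts, which holds counting error only and compares these libraries, not conditions. All 115 members had a mean count of at least 10 and were tested. The members' shares of 3.48% and 1.74% stood beside 4.46% and 1.7% of the 14965 genes tested in all, so neither share was far from the background. The rule keeps out a lincRNA that is high in 1 library and under 1 TPM in the other, and there were 31 such genes in replicate 2 and 14 in replicate 1. Over the members the log2 ratio of replicate 2 to replicate 1 had a median of -0.09, against 0.00 over all genes tested, and 97 members (84.3%) lay within 1.5-fold, as did 82.8% of all genes tested.

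AC138790.3 (chromosome 19, 43528312 to 43566029) had 1.93 TPM in replicate 1 and 4.03 TPM in replicate 2 from 117 and 268 counts, 2.02-fold (95% exact counting interval 1.62 to 2.53, exact binomial test, adjusted p = 5.6e-10). It lies 3707 nt from Got1, the cytosolic aspartate aminotransferase, which was itself higher in replicate 2 at 166 against 91.8 TPM and 1.72-fold by scaled counts, under the limit for a call. Gm49207 (chromosome 15, 7760714 to 7760992) had 2.93 and 8.56 TPM from only 17 and 53 counts, a 2.75-fold ratio (1.56 to 5.06). Its 279-nt transcript is printed because nearly all of it repeats Ahsa1, a co-chaperone gene on another chromosome, and capitals mark the bases that lie in no 31-base word shared with it.
Gm49207: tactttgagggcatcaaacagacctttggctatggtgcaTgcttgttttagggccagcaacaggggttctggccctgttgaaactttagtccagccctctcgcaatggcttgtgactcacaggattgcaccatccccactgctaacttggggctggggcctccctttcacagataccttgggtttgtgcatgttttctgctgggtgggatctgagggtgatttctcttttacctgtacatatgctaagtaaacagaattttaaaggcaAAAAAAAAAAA
Of its 279 bases, 267 lay in such words, Ahsa1 had 54.4 and 54.2 TPM, and the second quantification listed Gm49207 at 0 in both libraries. Gm44698 (chromosome 7, 19333129 to 19337655) had 2.11 and 4.67 TPM from 19 and 46 counts, 2.13-fold (1.22 to 3.85). It lies between Ercc1, a DNA repair gene at 14.3 and 13.0 TPM, and Fosb, an immediate early gene that was called 7.40-fold higher in replicate 2 at 0.19 and 1.04 TPM. Gm44899 (chromosome 7, 80980846 to 80993415) had 1.08 and 2.97 TPM from 10 and 30 counts, 2.64-fold (1.26 to 6.06), and its nearest protein-coding gene Zfp592 had 5.88 and 6.40 TPM and was not called. For Gm44899 the second quantification gave 0.786 TPM in replicate 1 and 0.313 TPM in replicate 2, the opposite order. Gm44698 had 5.36 and 7.10 TPM there, closer together than in the first quantification, and AC138790.3 had 2.55 and 4.51 TPM. By the exact binomial test the adjusted p was 0.00076 for Gm49207, 0.019 for Gm44698 and 0.021 for Gm44899.

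Higher in replicate 1 were Gm14319 and 8430426J06Rik, with an adjusted p of 0.00072 and 2.1e-05 by the exact binomial test. Gm14319 (chromosome 2, 167858585 to 167862542) had 3.41 TPM in replicate 1 and 1.58 TPM in replicate 2 from 65 and 33 counts, 2.24-fold (1.45 to 3.51). In the second quantification it had 5.45 and 2.95 TPM. Its nearest protein-coding gene, the phosphatase gene Ptpn1, lies 69515 nt away and had 7.93 and 8.14 TPM. 8430426J06Rik (chromosome 15, 81242657 to 81312866) had 4.77 and 2.28 TPM from 114 and 63 counts, 2.05-fold (1.5 to 2.84), and the second quantification gave 7.28 and 3.28 TPM. The receptor gene Mchr1, 3693 nt from it, had 1.5 and 1.41 TPM. Of the nearest protein-coding genes of the 6 members only Gdnf, a growth factor gene 49854 nt from Gm49207, was itself called, at 0.12 and 0.27 TPM. Among the 86 members with a mean count of at least 50, 1 was called in each direction (AC138790.3 and 8430426J06Rik), against 3.03% of all genes at that limit called higher in replicate 2 and 1.14% higher in replicate 1, and the other 4 called members lay under it. With edgeR's exact test and the common dispersion of the libraries, whose square root is 0.227, 0 members were called and 3 had an unadjusted p below 0.05, against 1.47% of all genes called higher in replicate 2 and 0.354% higher in replicate 1. The same binomial test on the second quantification called 0 members higher in replicate 2 and 1 higher in replicate 1, against 4.12% and 1.97% of all genes tested.

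**Figure D3:**
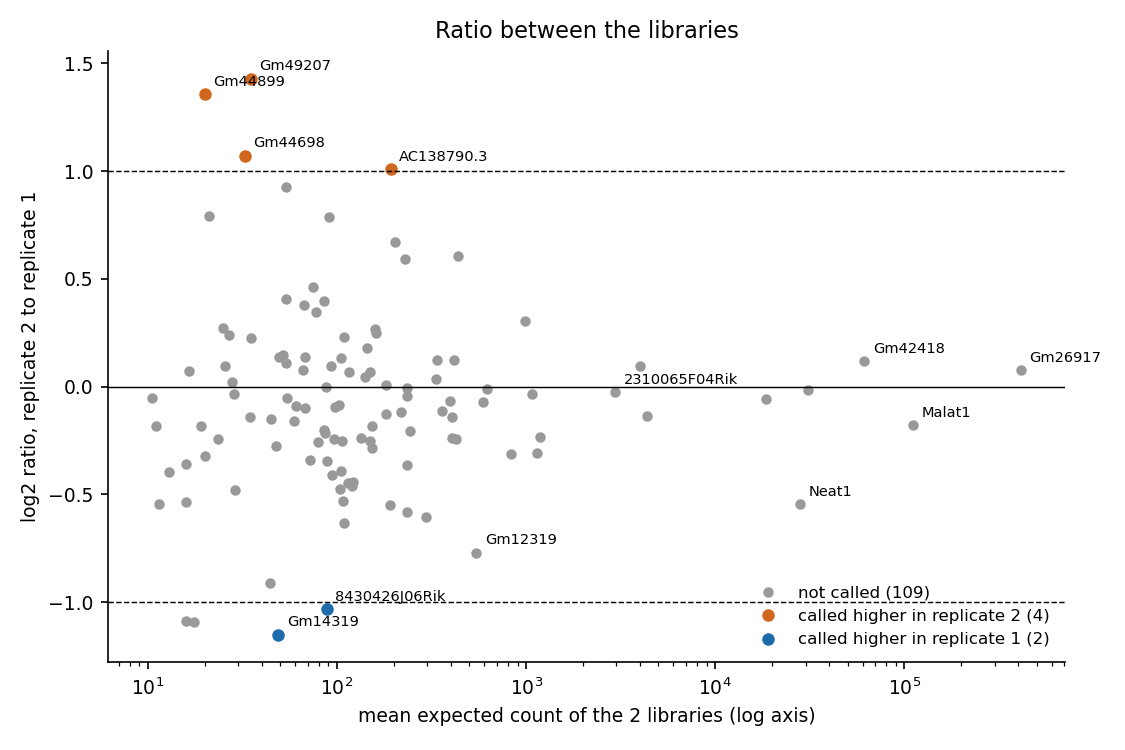
Log2 ratio of replicate 2 to replicate 1 (TMM-scaled counts + 0.5) against mean expected count (log axis) for the 115 members; colours mark the 4 members called higher in replicate 2 and the 2 called higher in replicate 1, and dashed lines mark 2-fold. The called genes lie at mean counts under 200, while Gm26917, Gm42418, Malat1 and Neat1 lie far to the right within 1.5-fold, and 2 scarce genes beyond 2-fold did not pass the adjusted p.

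Muscle fibre markers were high in both libraries, and several other marker lists differed between them. All 9 muscle fibre markers reached 1 TPM in both libraries, and their sum was 116053 TPM in replicate 1 and 88904 TPM in replicate 2. The 10 slow fibre genes were all called higher in replicate 2, with sums of 228 and 2531 TPM, and so were 10 of 13 immediate early genes, with sums of 128 and 327 TPM. The hepatocyte markers Alb, Apoa1 and Ttr summed to 0.05 TPM in replicate 1 and 14.3 TPM in replicate 2, and all 3 were called. Lymphocyte markers summed to 0.75 and 0.79 TPM and none reached 1 TPM in both libraries, and the neuron markers to 1.19 and 1.90 TPM. Most of the neuron sum was Stmn2, the only one of the 6 tested, which had 1.03 and 1.72 TPM and was called 2.47-fold higher in replicate 2, while Snap25 had 0 and 0.01 TPM. The part of these differences in the 6 called members and in the Neat1 forms was not tested.

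The second quantification, which the authors derived directly from the reads, placed most members at a like level and a few far apart. Its TPM were higher by a median of 1.36-fold over all genes at 1 TPM, and ratios were divided by that factor. After that, 5 members (4.35%) were at least 2-fold higher in the second quantification and 10 (8.70%) at least 2-fold lower, beside 0.968% and 4.43% of the 10954 genes compared. Spearman's rho of mean TPM between the quantifications was 0.749 over the 115 members, which share the same reads. Listed at 0 in the second quantification were Rmrp, Gm10076, Gm49207, Gm29323 and Gm34342, whose longest transcripts have 279 to 384 nt, and 14 members in all have no transcript as long as 400 nt. In the first quantification Gm29323 had 1.77 and 1.24 TPM and Gm34342 had 1.48 and 1.35 TPM. The effective length, by which counts are divided, was 99 nt below the length in the first quantification and a median of 344 and 349 nt below it in the second. The next largest differences downwards were those of A730063M14Rik, at 1.80 and 1.27 TPM against 0.185 and 0.201 TPM, and of 2310075C17Rik, at 1.40 TPM in each library against 0.5 and 0 TPM.

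Upwards, Gm20186 differed most, with 1.58 and 1.23 TPM in the first quantification and 112 and 54.8 TPM in the second. Gm20186 shares 34.2% of its 31-base words with another gene, Gm12840, which went from 0.30 and 0.33 TPM to 15.8 and 18.2 TPM. Snhg20 had 1.67 and 3.78 TPM in the first and 27.3 and 21.1 TPM in the second, where its 459-nt transcript, listed at 0 in the first, had 23.6 and 14.5 TPM. Gm26083, which lies in an exon of Snhg20, went the other way, from 26.5 and 18.3 TPM to 0 in both libraries. It is shorter than the median of 344 and 349 nt that the second quantification takes off the length. That 0 therefore cannot be told apart from an effect of length. Whether the same reads moved between these entries was not tested. Gm8066 had 1.15 and 2.10 against 6.81 and 8.10 TPM, and Gm19299 1.29 and 1.38 against 4.94 and 2.70 TPM. 2900076A07Rik, the host of Mir1839, had 3.19 and 2.77 against 9.26 and 7.15 TPM. Bvht came just under the 2-fold limit, with 4.73 and 4.43 TPM in the second quantification.

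**Figure D4:**
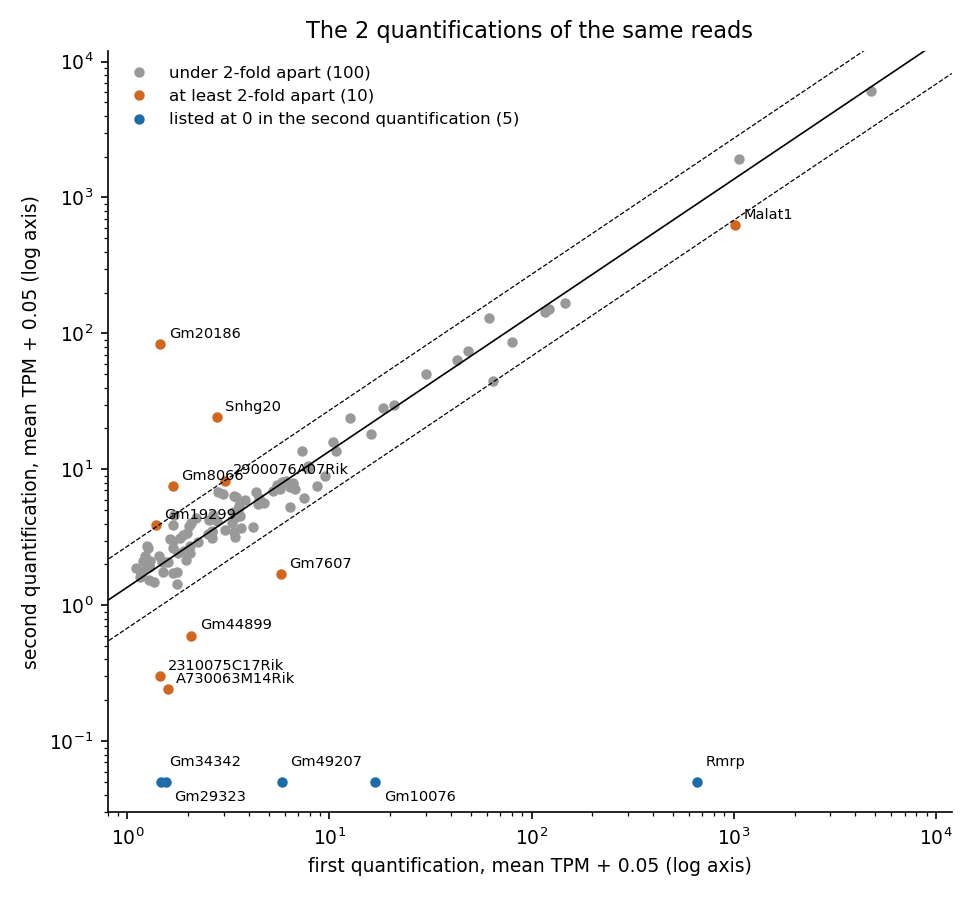
Mean TPM + 0.05 of each member in the first (x) and second (y) quantification, log axes; the solid line is the median ratio of all genes (1.36-fold) and the dashed lines lie 2-fold from it. Most members follow the line; Rmrp, Gm10076, Gm49207, Gm29323 and Gm34342 lie at the bottom because they were listed at 0 in the second quantification, and Gm20186 and Snhg20 lie far above the line.

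Only a minority of members shared a large part of their sequence with other genes. Of the 115, 43 shared no 31-base word with a transcript of another gene and 86 shared under 5%, but 7 shared at least 75%. Gm49749, which overlaps Pcnx on the same strand, shared 100% with it. The others were Rmrp (96%, ribozyme entry), AC158975.2 (90.2%, mostly Gm42427), Gm7292 (85.9%, Norad), Gm10076 (84.2%, mostly the ribosomal protein gene Rpl41), Gm49207 (83.1%, Ahsa1) and AC166110.4 (79.9%, mostly Sod2). These 7 were named after their values were seen. Their levels are uncertain, since reads are divided between such copies by estimate. Gm10076 had 14.9 and 18.7 TPM beside 429 and 442 TPM for Rpl41, and AC166110.4 had 3.18 and 3.59 TPM beside 155 and 182 TPM for the mitochondrial superoxide dismutase gene Sod2.

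For most members the nearest protein-coding gene was itself expressed. The nearest protein-coding gene reached 1 TPM in both libraries for 92 of 115 members, whereas 45.7% of all protein-coding genes did. The same share for genes nearest to other lincRNA genes was not computed, so whether this is particular to the members was not tested. The median distance of the nearest protein-coding gene over all 115 members, expressed or not and with overlaps taken as 0, was 4224 nt. A protein-coding gene was overlapped on the same strand by 3 members and on the opposite strand only by 11, and 101 overlapped none. In 19 pairs the member started within 1000 nt of a protein-coding gene that runs the other way, with a median of 266 nt between the starts. All 19 partners reached 1 TPM in both libraries and 16 had a higher mean TPM than the member. As examples chosen after their values were seen, Gm17586 had 3.41 and 3.04 TPM beside 24.3 and 24.8 TPM of Mafg, whereas 5031425E22Rik had 10.4 and 10.2 TPM beside 9.10 and 11.9 TPM of Kmt2e, a histone reader gene. The log2 ratios between the libraries had the same sign in 9 of the 19 pairs. Over the 92 members whose nearest gene reached 1 TPM in both libraries, log2 ratios of member and gene had a Pearson's r of 0.198. Spearman's rho over the same 92 was 0.203 for the log2 ratios and 0.162 for mean TPM. Each is given as a description of points that share the same libraries.

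At the threshold itself the levels were continuous. The members with the lowest smaller value were Gm6712 (1.26 and 1.02 TPM), A530013C23Rik (1.41 and 1.04 TPM) and 9530020I12Rik (1.04 and 1.06 TPM). Just outside were 2610035D17Rik (1.71 and 0.98 TPM), Gm49602 (0.94 and 0.96 TPM) and AC132130.1, which had 0.94 TPM in replicate 1 and 3.05 TPM in replicate 2.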

How the data were processed

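Total RNA was measured in 2 libraries of 1 group, with 40795740 expected counts in replicate 1 and 44919441 in replicate 2. Per the labels and the deposited file lists, the assembly is mm10 and the annotation GENCODE M21, and the labels' spike-in profile names stranded libraries with reduced ribosomal RNA. The authors derived the first quantification from a transcriptome alignment and the second directly from the reads; the aligner is not given in the sources used here. Deposited values were expected counts, TPM, percent of isoform use and, as a score, the posterior SD of each count. Counts were rounded. The 2-sided exact binomial test used TMM library sizes (edgeR 4.0.16) over genes averaging at least 10 counts, and log2 ratios used a pseudocount of 0.5 (0.05 on TPM between quantifications). DESeq2 1.42.0 size factors were an alternative. Intervals and binomial p-values cover counting error only. The common dispersion for edgeR's exact test was estimated from the same libraries taken as 1 group. It therefore takes in the difference under test, which limits the calls of that test. Shared 31-base words were counted on the transcript strand of GENCODE M21 transcripts. Named genes are the 15 most abundant members, called members with their nearest neighbours, list members, the largest differences between quantifications, threshold neighbours, RefSeq protein-coding members and small-RNA hosts. Members, lists and rules were chosen with earlier results of these data known.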

Additional observations from a re-analysis of the deposited data

How the results depend on the processing

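The rule depended on its threshold: 179 genes passed at 0.5 TPM, 66 at 2 TPM, 189 by the second quantification (105 of them shared) and 164 with TPM rescaled without Rn7s1, Rn7s2, mitochondrial rRNA and tRNA, tRNA and spike-ins; with 1 library left out it was 129 to 146. The members' share of TPM, 0.865%, was 1.36% with that rescaling, 1.63% of expected counts, 1.02% in the second quantification and 0.279% without Gm26917 and Gm42418, the last chosen after seeing the data. Calls higher in replicate 2 (4) were 1 at a mean count of 50, 0 in the second quantification, 9 at 1.5-fold and 0 with edgeR's exact test (3 members with unadjusted p below 0.05 in either direction). Calls higher in replicate 1 (2) were 0 under spike-in scaling, 1 by total counts, 1 at a mean count of 50, 1 in the second quantification, 6 at 1.5-fold and 0 with edgeR's exact test. Spike-in scaling moved the median log2 ratio of all genes by 0.22 and that of the members to 0.13. It shifts every gene alike, so the members' median relative to all genes, -0.09, could not change. The main transcript was the same in both quantifications in 14 of the 20 members with a mean TPM of at least 5. Of 40 alternatives, 21 stayed within the limits used and 19 moved beyond them. Those limits were wide: 164 and 146 members against 115 counted as unchanged. So did 22 against 15 members at least 2-fold apart between the quantifications. The cause of the changes was not tested, except that stricter limits leave fewer genes. No paired analysis was possible because the series has 1 group. Members with few counts limit precision: 29 had a mean count under 50.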
